A study of Rattus norvegicus with 138 samples.

Results

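The circadian clock genes measured here were Arntl, Clock, Per1, Per2, Per3, Cry1, Nr1d1, Nr1d2, Dbp and Ciart, 10 of the 16181 gene symbols in the expression table and 10 of the 11328 genes that were tested. They were chosen by symbol, after Ciart had been seen to be lower in contralateral than in control muscle, in order to compare clock gene levels between groups as a check on differences in time of day. Whole tibialis anterior (TA) muscle of adult male Lewis rats, an inbred strain, was profiled by RNA-Seq after volumetric muscle loss (VML), a full-thickness defect cut with a 6 mm punch from the TA of 1 leg. The VML-injured muscle and the uninjured contralateral TA of operated rats were taken at 3, 7, 14 and 28 days post injury (DPI). Injured muscles were either non-repaired or filled at surgery with an autologous minced muscle graft (MMG), and each of these arms held rats labelled as running and rats labelled as not running. How the running was done is not given in the sources used here, nor is the hour at which muscles were taken.

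After libraries with fewer than 7000 symbols above 1 TPM (transcript abundance scaled to the same total in every library) had been left out, 114 muscles of 78 rats remained. They were 76 injured muscles (42 of non-running and 34 of running rats), 34 contralateral muscles (22 and 12) and 4 control muscles. The controls were the left and right TA of 2 rats (TS4.037 and TS4.038; rats are named as in the labels), labelled as sham at day 0 and described by the study as unoperated. They carry another prefix than the operated rats (TS5), so that series and surgery cannot be told apart in any comparison with control. Their 4 muscles are not 4 animals, and p-values against control are therefore too small. The kept libraries held 7866 to 10948 symbols above 1 TPM. Sequencing depth is unknown, because TPM keeps no counts. The 13 libraries left out held 901 to 5712 symbols, and ribosomal RNA symbols made up 71.5 to 83.9% of the TPM in 12 of them. The library just under the limit listed Arntl at 0.88 and Dbp at 6.91 TPM, and the library just above it, the right muscle of control rat TS4.038, listed them at 2.21 and 91.3 TPM.

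The molecular clock is a feedback loop of transcription that runs in nearly every cell, skeletal muscle fibres included. The proteins of Arntl (also called Bmal1) and Clock pair and activate genes that carry E-box sequences, among them the Per genes, Cry1, Nr1d1, Nr1d2, Dbp and Ciart. The PER, CRY and CIART proteins repress that pair. The receptors encoded by Nr1d1 and Nr1d2, called REV-ERB alpha and beta, repress Arntl through ROR elements (ROREs), and DBP is an output factor that binds D-boxes. Over a day, Arntl transcripts peak at roughly the opposite time to Dbp, Nr1d1 and Ciart transcripts, and food, light, activity and glucocorticoid hormone set the time of the loop.

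Promoters of the members were searched for the letters of these sites. In the 250 bases before the RefSeq gene start (build GRCr8), 11 windows of 9 members were searched on both strands for 6 spellings, and 4 windows held a match. Cry1 had no window. The 4 are printed 5′ to 3′ on the gene's strand with matches in capitals, because they are the windows that held a match. The windows of Clock, Per1, Per3, Nr1d2 and Dbp and the first of Nr1d1 held none. The Arntl window (chr1:176766078-176766327, plus strand) held the RORE letters TAGGTCA at 16 to 10 bases before the start. The Per2 window (chr9:99496994-99497243, minus strand) held the D-box TTATGTAA at 192 to 185 bases before. A second start of Nr1d1 (chr10:84229455-84229704, minus strand) held the E-box CACGTG at 191 to 186 bases before. The Ciart window (chr2:186112247-186112496, minus strand) held 3 E-boxes CACGTG, the farthest at 93 to 88 bases before.
Arntl: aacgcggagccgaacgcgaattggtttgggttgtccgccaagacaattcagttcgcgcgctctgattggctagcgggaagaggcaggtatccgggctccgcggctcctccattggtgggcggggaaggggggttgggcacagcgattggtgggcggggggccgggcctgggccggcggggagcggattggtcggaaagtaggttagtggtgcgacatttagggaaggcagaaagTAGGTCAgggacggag
Per2: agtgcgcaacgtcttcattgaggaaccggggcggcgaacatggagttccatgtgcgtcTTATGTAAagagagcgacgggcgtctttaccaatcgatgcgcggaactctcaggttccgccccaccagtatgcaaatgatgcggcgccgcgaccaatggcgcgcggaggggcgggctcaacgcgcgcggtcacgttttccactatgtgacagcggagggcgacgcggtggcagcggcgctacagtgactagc
Nr1d1: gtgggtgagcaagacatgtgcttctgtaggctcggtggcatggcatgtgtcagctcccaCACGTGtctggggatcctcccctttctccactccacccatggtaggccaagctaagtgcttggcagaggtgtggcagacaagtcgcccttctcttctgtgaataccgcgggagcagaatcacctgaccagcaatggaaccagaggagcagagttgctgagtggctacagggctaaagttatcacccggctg
Ciart: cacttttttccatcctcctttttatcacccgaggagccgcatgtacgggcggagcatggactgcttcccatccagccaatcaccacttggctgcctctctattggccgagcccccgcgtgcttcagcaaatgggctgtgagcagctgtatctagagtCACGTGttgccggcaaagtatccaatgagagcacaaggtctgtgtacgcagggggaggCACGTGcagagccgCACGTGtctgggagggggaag
Of all 33469 windows of that length, 5.59% held CACGTG, 2.26% TAGGTCA and 0.828% TTATGTAA. The other spellings were the RORE TGGGTCA (3.44%) and the D-boxes TTACGTAA (0.108%) and TTATGCAA (0.789%). A match is a description of these letters and not evidence of binding.

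Uninjured muscle gives the clock genes without the wound. Arntl, the activator, was at 3.61 to 4.92 TPM in the 4 contralateral muscles of non-running rats at 28 DPI (3.61, 4.06, 4.1 and 4.92). At 14 DPI it was at 3.6, 9.42, 13.8 and 17.8 TPM, at 3 DPI at 5.25, 5.43, 9.66 and 11.8 TPM, and at 7 DPI between 6.13 and 16.25 TPM with a median of 9.71 (n = 10). The 4 control muscles had 6.72 and 6.05 TPM in rat TS4.037 and 3.66 and 2.21 TPM in rat TS4.038. The 28 DPI muscles were thus tightly grouped at the low end, whereas those at 14 DPI ran from the lowest to the highest contralateral value of non-running rats.

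Dbp and Ciart ran the other way. Dbp, the output factor, was at 129.05, 131.49, 144.03 and 149 TPM in the 28 DPI contralateral muscles and at 21.6, 24.04, 56.05 and 97.5 TPM at 14 DPI. At 3 DPI it was at 40.3, 129.52, 137.49 and 142.72 TPM, and at 7 DPI between 23.4 and 146 TPM (median 41.8). Ciart, the repressor also named Chrono, was at 6.33, 8.79, 12.4 and 12.8 TPM at 28 DPI and at 0.22, 0.70, 1.92 and 4.26 TPM at 14 DPI. No 28 DPI muscle was as low as the highest 14 DPI muscle in either gene. Between these days 20.4% of all genes did not overlap, in whichever direction. At 3 DPI Ciart was at 4.13, 5.71, 7.22 and 11.3 TPM, and at 7 DPI between 0.30 and 3.5 TPM (median 0.62), also without overlap, as was so for 34.6% of all genes between these days. Within 14 DPI, rat TS5.133 was lowest in Arntl (3.6 TPM) and highest in Dbp and Ciart, while rat TS5.129 was lowest in both of the latter (21.6 and 0.22 TPM) at an Arntl of 13.8 TPM. These 2 rats thus stood at opposite ends of that day in Dbp and Ciart.

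**Figure D1:**
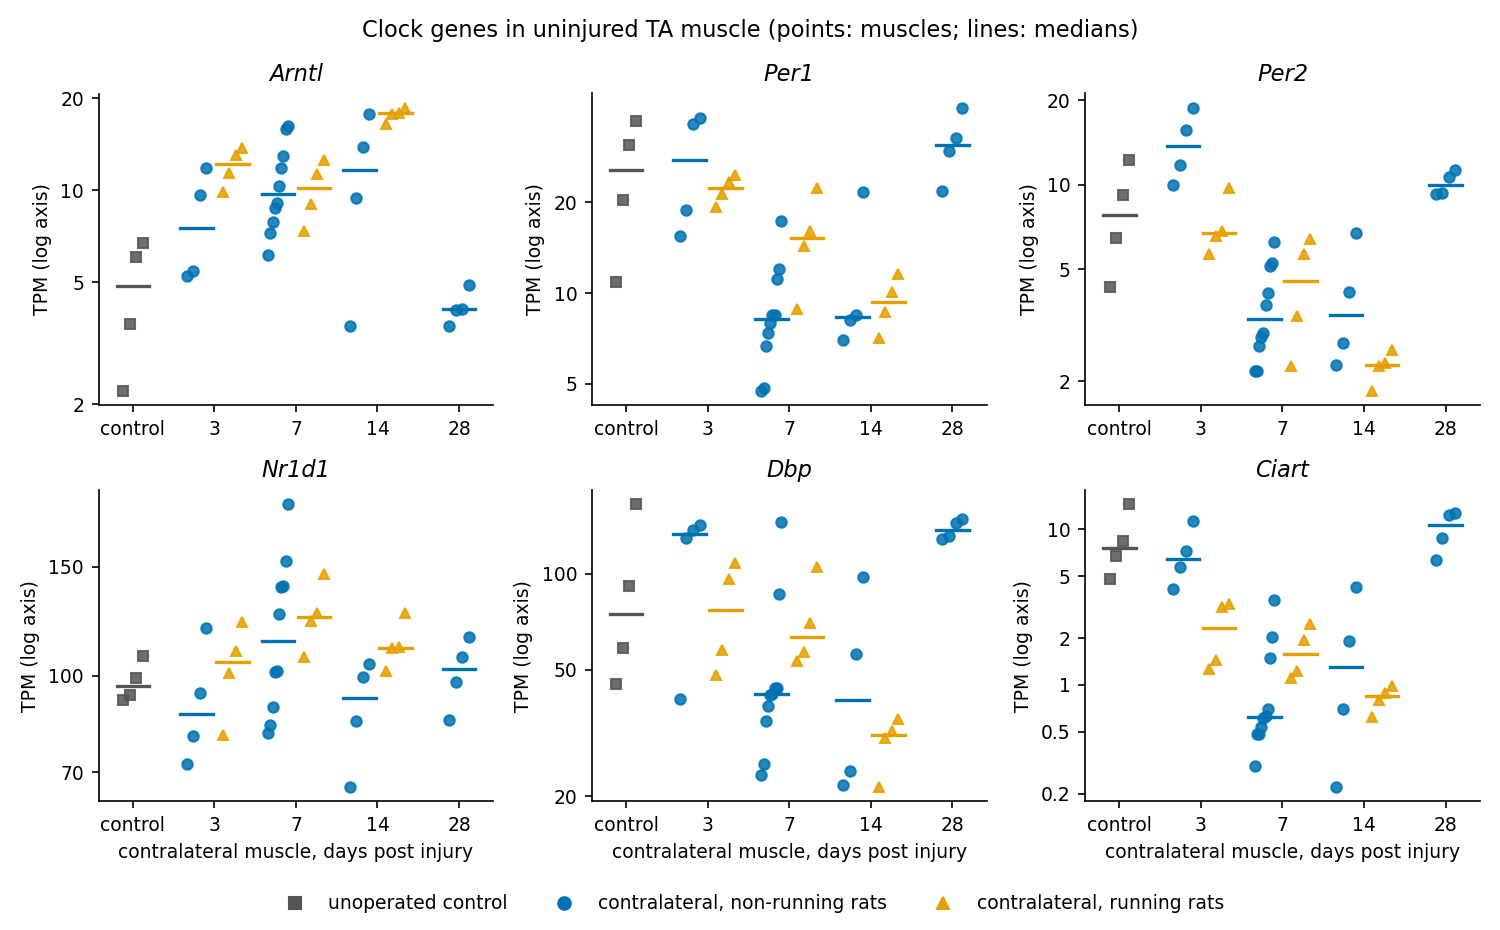
Level in TPM (log axis) of clock genes in each uninjured muscle of control rats and of operated rats by DPI, with 1 point per muscle. Contralateral muscles at 28 DPI lie at 3.61 to 4.92 TPM of Arntl and 129.05 to 149 TPM of Dbp, and those at 14 DPI are spread from 3.6 to 17.8 and from 21.6 to 97.5 TPM.

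The Period genes, repressors of the loop, were high at 3 and 28 DPI and low between. Per1 was at 15.4 to 38.1 TPM at 3 DPI, 4.74 to 17.4 TPM at 7 DPI (median 8.195), 6.98 to 21.7 TPM at 14 DPI and 21.75 to 41.2 TPM at 28 DPI. Per2 was at 9.97 to 18.8, 2.17 to 6.27, 2.29 to 6.72 and 9.30 to 11.3 TPM on the same days, and Per3 at 18.5 to 26.2, 4.03 to 14.8, 6.52 to 11.05 and 12.7 to 17.85 TPM. The 3 genes thus shared 1 shape over the days. Clock, the partner of Arntl, and Cry1, the CRY repressor, ranged from 4.03 to 14.7 TPM (median 8.825) and from 3.94 to 9.75 TPM (7.065) over all 38 uninjured muscles. Nr1d1 was at 66.2 to 189 TPM in contralateral muscles of non-running rats, and its ranges on the 4 days overlapped each other. Nr1d2 had medians of 60.9, 36.9, 37.3 and 49.9 TPM at 3, 7, 14 and 28 DPI.

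The level of contralateral against control muscle is given as a description with no test, since this contrast led to the choice of genes. At 28 DPI all 10 genes overlapped the 4 control muscles (11.3% of tested genes did not). At 14 DPI Ciart alone lay outside, with a highest contralateral value of 4.26 against a lowest control value of 4.78 TPM (15.3% of genes). At 7 DPI 1 gene was lower (6.96%), Ciart again, and at 3 DPI 2 were higher without overlap (55.4%), Per3 with a lowest value of 18.5 against a highest control value of 17.1 TPM and Cry1 with 7.72 against 6.99 TPM. In running rats 4 of 10 genes lay outside the control range at 3 DPI (49%), with Arntl, Clock and Cry1 above it and Ciart below it. At 7 DPI 3 of 10 did (18.8%), Arntl and Clock above and Ciart below. At 14 DPI 6 of 10 lay outside the control range (17.7%): Arntl (16.5 to 18.6 TPM), Clock and Cry1 above it, and Per2, Dbp (21.3 to 34.8 TPM) and Ciart (0.62 to 0.99 TPM) below it.

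Day steps were tested within contralateral muscle of non-running rats, over both repair arms, and calls needed both an adjusted p below 0.05 and a log2 fold change beyond 1. Differences are on the log2(TPM + 1) scale and come from 1 limma model over all 114 muscles with Benjamini-Hochberg adjustment over all genes. This scale understates changes of low genes such as Ciart. From 14 to 28 DPI 4 of the 9 clock genes other than Ciart were called, against 13 of all 11328 genes (0.115%). Dbp rose by 1.72 ± 0.31 (SE; adjusted p = 0.000562), Per1 by 1.49 ± 0.32 (0.00512) and Per2 by 1.24 ± 0.21 (0.000202), while Arntl fell by 1.06 ± 0.25 (0.0157; 4 muscles against 4). Per3 differed by 0.82 (adjusted p = 0.0774) and Nr1d2 by 0.44, and Clock, Cry1 and Nr1d1 differed by -0.19 to 0.20. Low Ciart was noticed in contralateral muscle, so that every difference of Ciart that rests on contralateral or control muscle is given as a description, with no test. In this step it was 2.18 ± 0.29.

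The size of that step depended on single rats. Without contralateral rat TS5.129 the Dbp difference was 1.19 (adjusted p = 0.0928), Per1 1.12 (0.168) and Per2 0.98, under the fold limit. Per1 also lost its call without rat TS5.073 (1.38; 0.0609) or rat TS5.075 (1.35; 0.105). Arntl lost its call without any 1 of rats TS5.073, TS5.074, TS5.075, TS5.076, TS5.129 or TS5.131, at -1.151 to -0.64 (adjusted p = 0.0522 to 0.414), and when the groups compared were fitted alone (0.0788). Without each of the 8 muscles the difference of Ciart was 1.65 to 2.7029. With the dropped libraries kept in the model the differences were the same and the 4 calls were lost (adjusted p = 0.295 to 1). The 28 DPI muscles came from rats TS5.073 to TS5.076 and the 14 DPI muscles from rats TS5.129 to TS5.135, so that day post injury and set of rats cannot be told apart.

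From 3 to 7 DPI the step went down. In contralateral muscle 4 of the 9 clock genes other than Ciart fell, against 2.52% of genes called lower and 2.65% called in all (4 muscles at 3 DPI, 10 at 7 DPI). The log2 differences were -1.74 ± 0.18 for Per2 (adjusted p = 1.71e-13), -1.495 ± 0.27 for Per1 (2.91e-06), -1.31 ± 0.20 for Per3 (8.69e-08) and -1.24 ± 0.27 for Dbp (5.62e-05). Arntl differed by 0.38 (adjusted p = 0.11), and Ciart by -2.07 ± 0.24. All genes together shifted by a median of -0.347 in this step. With median-of-ratios size factors, which brought that median to -0.011, Per3 (-0.90) and Dbp (-0.79) were under the fold limit, and Dbp was so without rat TS5.010 too (-0.79). All 4 kept their calls when the range of rat numbers entered the model, as 1 shift common to all groups. In the non-repaired arm the 3 DPI muscles were of rats TS5.010 and TS5.017 and the 7 DPI muscles of rats TS5.105 to TS5.126. That model therefore cannot separate day from set of rats in this arm. Within rats TS5.010 to TS5.017 alone, 2 muscles at 7 DPI lay below 4 at 3 DPI in Per1, Per2, Ciart, Per3 and Cry1, with log2 differences of -1.83, -1.38, -1.06, -0.70 and -0.41, and above them in Nr1d1 (0.92). These 6 of 10 compare with 53% of all genes without overlap. Dbp overlapped (86.2 and 146 against 40.3 to 142.72 TPM), with a log2 difference of 0.15, opposite in sign to its step over all these rats. In running rats TS5.001 to TS5.008, with 4 muscles on each day, Per3 alone lay apart (-0.78; 26.8% of genes). Per1 (-0.56), Per2 (-0.65), Ciart (-0.26) and Dbp (-0.09) overlapped there. From 7 to 14 DPI limma called 0 of these 9 (0.115% of genes), and 1 of 9, Nr1d1, had an unadjusted p below 0.05.

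In injured muscle of non-running rats 3 genes were called in the later step. From 14 to 28 DPI, over 8 muscles each, Ciart was at 0.60 to 2.25 TPM (median 1.265) and then at 3.81 to 8.41 TPM (4.925). Dbp was at 43.5 to 102.57 TPM (80.65) and then at 124.73 to 189 TPM (157). Neither gene overlapped between the days (3.86% of genes did not). Ciart rose by 1.48 ± 0.20 (adjusted p = 4.53e-08), Per1 by 1.28 ± 0.23 (2.05e-05) and Dbp by 1.08 ± 0.22 (0.000248), 3 of 10 members against 1.13% of genes. Arntl (-0.90), Per2 (0.95), Per3 (0.80) and Nr1d2 (0.45) had an adjusted p below 0.05 within the fold limit. Dbp was under that limit without injured rat TS5.129 (0.957) or rat TS5.131 (0.965). With the dropped libraries kept in the model its difference was the same and its call was lost (adjusted p = 0.0781). These muscles came in part from the same rats as the contralateral ones and carried the same confounding of day with rat numbers. In this step 4 of 8 fibroblast markers fell (summed level 5914 to 12418 TPM at 14 DPI and 2318 to 5508 TPM at 28 DPI), and none of the leukocyte, fast myofibre, endothelial, glucocorticoid-induced, immediate early or temperature-responsive genes was called. Their part in the result was not tested. In the earlier steps of injured muscle limma called 0 of 10 from 3 to 7 DPI (6.96% of genes), where 3 of 10 had an adjusted p below 0.05, and 0 of 10 from 7 to 14 DPI (8.88%), where 4 of 10 had. With size factors Nr1d1 was called in the latter, at 1.11.

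**Figure D2:**
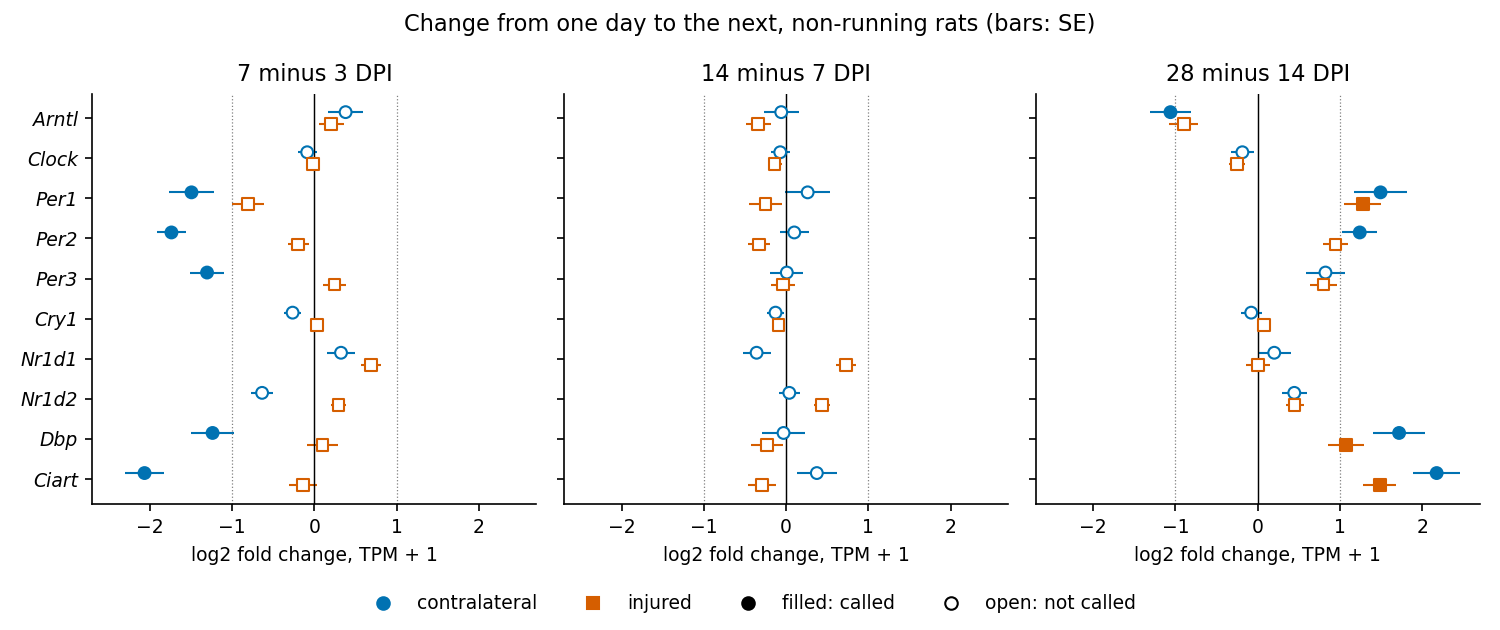
Difference between successive days in log2(TPM + 1) with its standard error, for each clock gene, in contralateral and in injured muscle of non-running rats. From 14 to 28 DPI Ciart, Dbp and Per1 lie above 1 in both muscles, and from 3 to 7 DPI the contralateral Per genes, Dbp and Ciart lie below -1.

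The 2 kinds of muscle differed in the step from 3 to 7 DPI by a test of the difference itself. The injury effect (injured minus contralateral, non-running) was higher at 7 than at 3 DPI by 1.55 ± 0.25 for Per3, 1.54 ± 0.22 for Per2 (adjusted p = 1.70e-08) and 1.34 ± 0.33 for Dbp (0.000411), 3 of the 9 members other than Ciart against 8.57% of genes. That on Ciart differed by 1.93 ± 0.30. The contralateral muscles at 3 DPI were of rats TS5.010 to TS5.017, and 8 of the 10 at 7 DPI of rats TS5.105 to TS5.128. Day and set of rats were thus largely confounded in this test. Within rats TS5.010 to TS5.017 the contralateral step was -1.38 for Per2, -0.70 for Per3 and 0.15 for Dbp. The median of all genes moved by -0.347 in the contralateral and -0.073 in the injured step. From 7 to 14 DPI the effect on Nr1d1 was higher by 1.08 ± 0.21 (8.78% of genes), and from 14 to 28 DPI limma called 0 of 9 (0.141%), with 0 of 9 at an unadjusted p below 0.05.

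Genes that respond to other daily or handling signals were read beside these steps. From 3 to 7 DPI in contralateral muscle, 2.52% of all genes were called lower and 0.124% higher, at a median shift of -0.347. With size factors 0.447% were called lower. On the TPM scale 5 of 10 glucocorticoid-induced genes fell, namely Klf15 (-1.01), Pdk4 (-1.17), Ddit4 (-1.74), Cebpd (-1.10) and Mt2A (-1.71). Of 10 immediate early genes Fos fell (-1.23), of 9 temperature-responsive genes none was called, and of 10 leukocyte markers 2 fell, with a summed level of 71.3 to 197 TPM at 3 DPI and 50.7 to 95.6 TPM at 7 DPI. Of 8 fibroblast markers 3 fell, of 12 fast myofibre genes 1 rose and 1 fell, and of 6 endothelial markers none was called. From 14 to 28 DPI, where 0.115% of all genes were called, 1 of 10 glucocorticoid-induced genes rose, Cebpd (1.21), and none of the other lists held a called gene. The part of these signals in the clock gene differences was not tested.

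The wound itself was read by setting injured against contralateral muscle. In this contrast the median of all genes moved by 0.38 to 0.91 on the log2 scale, and by 0 to 0.064 with size factors, so that a difference near 0.5 is close to that of a typical gene. The summed level of 12 fast myofibre genes in non-running rats was 29843 to 80088 TPM in injured muscle at 3 DPI against 229150 to 261750 TPM in contralateral muscle, and 191410 to 272520 TPM at 28 DPI against 297650 to 305290 TPM. That of 10 leukocyte markers was 4422 to 7189 TPM in injured muscle at 3 DPI and 233 to 801 TPM at 28 DPI. That of 8 fibroblast markers was 5105 to 9044 TPM in non-repaired muscle at 3 DPI and 7390 to 21789 TPM at 7 DPI, against 643 to 1493 and 297 to 540 TPM in the contralateral muscles of that arm. No marker was at 0 in either group. In whole muscle, fewer cells of a type and less RNA per cell cannot be told apart, and the part of cell composition in the results that follow was not tested.

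Nr1d1, which encodes REV-ERB alpha, was lower in injured than in contralateral muscle at the early times. At 3 DPI the non-repaired muscles had 20.2, 26.5 and 34.9 TPM and the contralateral muscles of that arm 72.3 and 93.8 TPM. MMG muscles had 19.4 to 39.05 TPM (median 27.5, n = 7) against 79.99 and 119 TPM, and running rats 22.4 to 53.7 TPM (30.6, n = 14) against 80.4 to 122 TPM. The groups did not overlap in any of the 3 arms, as was so for 78.5%, 79.6% and 65.3% of genes. The differences were -1.60 ± 0.26 (adjusted p = 9.63e-08), -1.70 ± 0.23 (2.29e-10) and -1.70 ± 0.16 (1.50e-16), against 38.2%, 44% and 42.1% of genes called in these contrasts and 5.92%, 6.8% and 6.55% called lower. With the dropped libraries kept in the model the non-repaired difference was the same and its call was lost (adjusted p = 0.0609). At 7 DPI injured muscle had 29.5 to 65.3 TPM and contralateral muscle 80.85 to 189 TPM over the 3 arms. Nr1d1 was lower by 1.57 ± 0.15 in MMG (4.48e-16; 46.2% of genes called, 3.35% lower) and 1.49 ± 0.18 in running rats (1.11e-12; 43.7% and 3.7%). In the non-repaired arm it was at -0.999 ± 0.18 (2.51e-07; 47.4%), just inside the fold limit. At 14 DPI the differences were -0.36 to -0.04 and at 28 DPI -0.41 and -0.39, none of them called.

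Within rats Nr1d1 had the same sign throughout. It was lower in the injured than in the contralateral muscle in 34 of 34 rats with both, by 0.10 to 2.12 (median 1.35), which was so for 3.73% of all genes. In non-running rats the difference was -1.99 to -1.40 at 3 DPI (4 rats), -1.79 to -0.70 at 7 DPI (10 rats), -0.53 to -0.10 at 14 DPI (4 rats) and -0.56 to -0.17 at 28 DPI (4 rats). The ranges of 3 and 7 DPI lay apart from those of 14 and 28 DPI. Clock was higher in the injured muscle in 32 of 34 rats and Per2, the Period repressor, in 30, but 67.8% of all genes were higher in at least 30 rats. Arntl was higher in 28. The median differences of Clock (0.27) and Arntl (0.31) were below the median shift of all genes. Per3 changed sign with the day. It was lower in 8 of 8 rats at 3 DPI, as were 17.1% of all genes, and higher in 26 of 26 later, as were 60.5%. Nr1d2 was lower in 8 of 8 rats at 3 DPI and in 13 of 26 later. Dbp was higher in 2 of 8 rats at 3 DPI and 20 of 26 later, Ciart in 2 and 16, Per1 in 1 and 14, and Cry1 in 1 and 11.

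**Figure D3:**
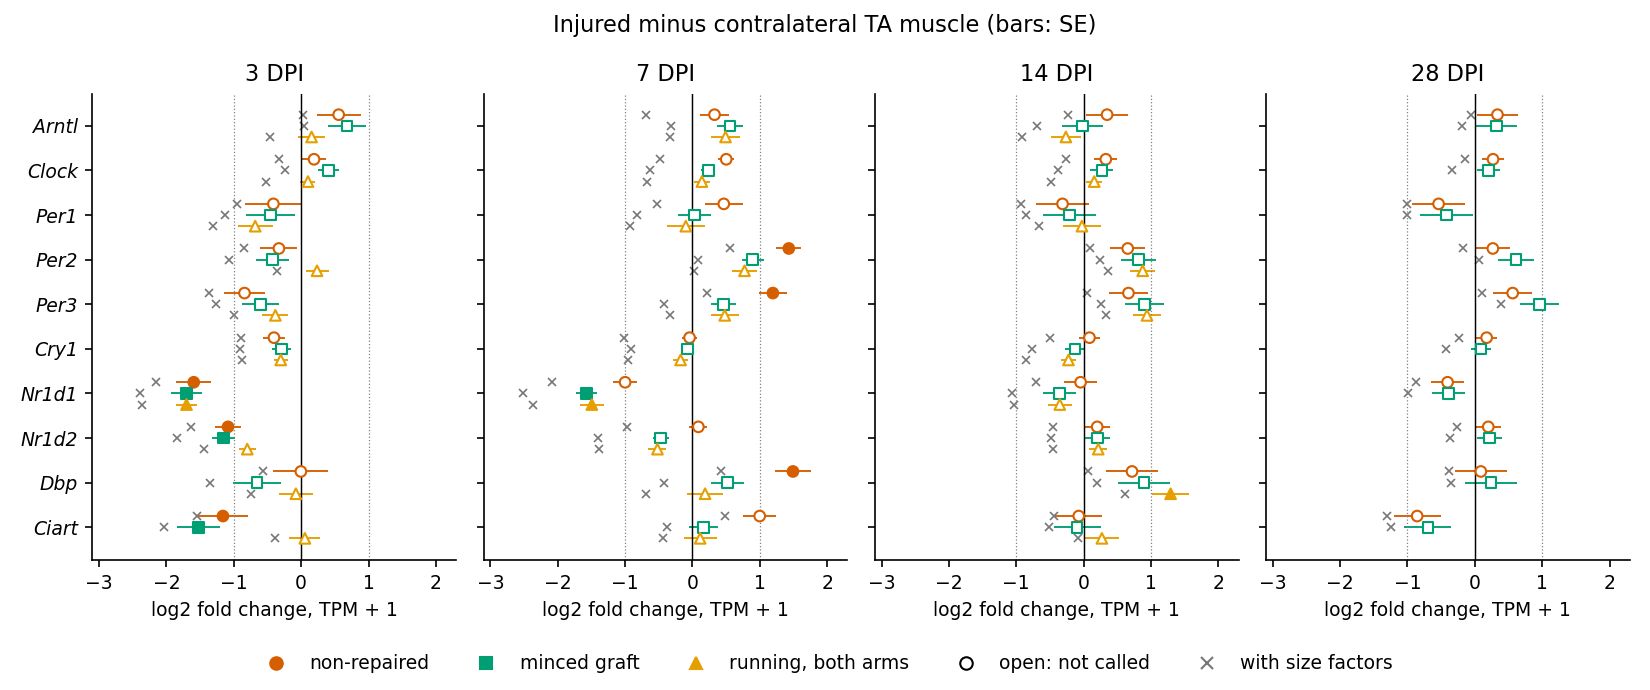
Difference of injured minus contralateral muscle in log2(TPM + 1) with its standard error, for each clock gene by DPI, in non-repaired, MMG and running rats. Nr1d1 lies between -1.70 and -0.999 at 3 and 7 DPI and between -0.41 and -0.04 at 14 and 28 DPI.

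Nr1d2 and Ciart were lower too at 3 DPI in the non-repaired and MMG arms. At 3 DPI Nr1d2, the second REV-ERB, was at 23.6, 23.96 and 24.8 TPM in non-repaired muscle against 43.8 and 62.5 TPM, and Ciart at 1.22, 1.25 and 2.61 TPM against 4.13 and 5.71 TPM. In MMG muscle Nr1d2 was at 21.9 to 31.4 TPM against 59.6 and 62.2 TPM, and Ciart at 1.56 to 4.17 TPM against 7.22 and 11.3 TPM. Neither gene overlapped between muscles in either arm. Nr1d2 was lower by 1.09 ± 0.20 (adjusted p = 1.25e-06) and 1.153 ± 0.17, so that with Nr1d1 2 of the 9 members other than Ciart were called in each of these arms, where 38.2% and 44% of all genes were called (5.92% and 6.8% lower) and 78.5% and 79.6% did not overlap. The differences of Ciart were -1.16 ± 0.37 and -1.52 ± 0.32. In running rats Nr1d2 was not called. It differed by -0.80 ± 0.12 (adjusted p = 1.03e-08), within the fold limit and without overlap (19.2 to 35.8 against 41.95 to 49.9 TPM). Ciart in running rats was at 1.36 to 5.68 TPM in injured and 1.26 to 3.31 TPM in contralateral muscle, a difference of 0.05 ± 0.23, and was higher in the injured muscle in 2 of 4 rats. Without contralateral rat TS5.010 the non-repaired difference of Nr1d2 was -0.83 and not called, and that of Ciart -0.97. With the dropped libraries kept in the model the non-repaired difference of Nr1d2 was the same and its call was lost (adjusted p = 0.123). At 7 DPI Nr1d2 was not called in any arm.

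Per2, Per3 and Dbp were higher in non-repaired muscle at 7 DPI. Per2 was at 7.61 to 10.06 TPM (median 8.79, n = 8) against 2.17, 2.18, 2.68 and 3.73 TPM, Per3 at 11.07 to 18.3 TPM (16.3) against 4.03, 5.52, 7.07 and 9.17 TPM, and Dbp at 68.5 to 140.78 TPM (82.4) against 23.4, 25.3, 34.5 and 41.9 TPM. No injured muscle was as low as the highest contralateral one, and 71.5% of all genes did not overlap in this contrast. The differences were 1.43 ± 0.18, 1.19 ± 0.21 and 1.49 ± 0.27, 3 of the 9 members other than Ciart where 45.3% of genes were called higher, and with size factors they were 0.55, 0.21 and 0.42 and not called. In running rats at 14 DPI Dbp was higher by 1.29 ± 0.27 (59.5 to 99.0 against 21.3 to 34.8 TPM; 25.2% of genes called), and by 0.62 and not called with size factors. Limma called 0 of 9 at 14 or 28 DPI in the non-repaired (21.1% and 13.3% of genes) or MMG arm (26.1% and 19.1%), where 2, 0, 3 and 2 of 9 had an unadjusted p below 0.05.

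Size factors brought further calls, all of them lower where injured was set against contralateral or control muscle. The 1 gained between days was higher, Nr1d1 in injured muscle from 7 to 14 DPI (1.11). Against contralateral muscle there were 16 among the 9 members other than Ciart, where 1.51% to 15.8% of all genes were called lower in a comparison with these factors. At 3 DPI they were Per3 in non-repaired muscle (-1.38), Per1 (-1.13), Per2 (-1.07), Per3 (-1.26) and Dbp (-1.36) in MMG muscle, and Per1 (-1.31), Per3 (-1.0007) and Nr1d2 (-1.45) in running rats. At 7 DPI they were Cry1 (-1.01) and Nr1d1 (-2.08) in non-repaired muscle and Nr1d2 in MMG (-1.40) and running rats (-1.38). At 14 DPI Nr1d1 was called in MMG (-1.07) and running rats (-1.04), and at 28 DPI Per1 in non-repaired (-1.0016) and MMG muscle (-1.0014). The Per3, Per2 and Dbp calls that were higher at 7 DPI on the TPM scale and the lower calls at 3 DPI with these factors thus depended on the scaling.

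Against control, the 9 clock genes other than Ciart were called in non-repaired muscle for 6 of 36 gene and day pairs (36.9% over all genes). These 4 comparisons share the 4 control muscles. Ciart was chosen on the values of those muscles and is given as a description, with no test. Arntl was at 10.6, 10.98 and 16.1 TPM at 3 DPI and 8.0 to 16.9 TPM at 7 DPI (median 13.8) against 2.21 to 6.72 TPM in control, higher by 1.32 (52.6% of genes called) and 1.41 (48.1%), and by 0.34 and 0.48 and not called with size factors. Nr1d1 was lower by 1.84 and 1.02 on these days (91.5 to 107.88 TPM in control), and Per1 by 1.12 at 14 DPI (25.5% of genes). The differences of Ciart were -1.78, -1.61 and -1.90 at 3, 7 and 14 DPI. At 28 DPI Per3 was higher by 1.14 (21.3%), and by 0.52 and not called with size factors. With size factors 7 further calls were lower, Per1 (-1.40), Nr1d2 (-2.04) and Dbp (-1.20) at 3 DPI, Per1 (-1.90) and Nr1d2 (-1.59) at 7 DPI, and Nr1d1 at 14 (-1.1134) and 28 DPI (-1.1128), where 3.17% to 16.9% of all genes were called lower. Single muscles decided 3 of the calls without size factors. The Nr1d1 call at 7 DPI was lost without the left muscle of control rat TS4.038 (-0.97), the Per1 call without the right muscle of rat TS4.037 (-0.89), the left muscle of rat TS4.038 (-0.98) or injured rat TS5.137 (-0.92), and the Per3 call without the right muscle of rat TS4.038 (0.82).

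No member was called between repair arms or with running, where Ciart in contralateral muscle is given with no test. Between MMG and non-repaired injured muscle 0 of 40 gene and day pairs were called by limma (0.0309% over all genes), 0 of 40 had an unadjusted p below 0.05, and the differences ran from -0.44 to 0.42 with standard errors of 0.09 to 0.32. The injury effect at 7 DPI, set between the arms, had 5 of the 9 members other than Ciart at an unadjusted p below 0.05, all lower in MMG. They were Dbp (-0.97), Per3 (-0.73), Nr1d1 (-0.57), Nr1d2 (-0.56) and Per2 (-0.53), none of them called (lowest adjusted p = 0.415). That on Ciart differed by -0.83. The contralateral muscles were of rats TS5.105 to TS5.126 in the non-repaired arm and of rats TS5.015 to TS5.128 in the MMG arm. The arms thus held different ranges of rat numbers. At 3, 14 and 28 DPI 0 of 9 had an unadjusted p below 0.05. Between running and non-running rats 0 of 40 pairs were called in injured muscle (0.0817%), with 7 of 40 at an unadjusted p below 0.05, a lowest adjusted p of 0.072 and differences of -0.49 to 0.81. In contralateral muscle limma called 0 of 27 pairs without Ciart (0.0912% over all genes, 0.265% at 3 DPI), with 10 of 27 at an unadjusted p below 0.05. Ciart at 3 DPI was at 1.26, 1.44, 3.17 and 3.31 TPM in running rats and at 4.13, 5.71, 7.22 and 11.3 TPM in non-running rats, lower by 1.28 ± 0.29, and by 1.14 without rat TS5.013. Per2 on that day, at 5.65 to 9.71 against 9.97 to 18.8 TPM, differed by -0.86 (adjusted p = 0.015), within the fold limit. Of 10 glucocorticoid-induced genes Mt2A was higher in running rats in this contrast (1.90; adjusted p = 0.00145), and its part in the result was not tested. The injury effect on Ciart at 3 DPI was 1.40 ± 0.34 higher in running than in non-running rats, and 0 of 9 other members were called in that test (0.159% of genes), with 1 of 9 at an unadjusted p below 0.05. The running rats were TS5.001 to TS5.006 and the others TS5.010 to TS5.017 in contralateral muscle at 3 DPI, so that running and set of rats cannot be told apart there.

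Whether a rat's 2 muscles moved together was asked where most rats could be paired, in the 10 non-running rats with both muscles at 7 DPI. Arntl in the contralateral muscle ran from 6.13 TPM in rat TS5.016 to 16.25 TPM in rat TS5.125, and in the injured muscle of those rats it was 12.4 and 16.9 TPM. The correlations used log2(TPM + 1) less the mean of the repair arm for that kind of muscle, so that differences between arms were taken out. Over the 10 rats Pearson's r of these values was 0.816 (permutation test, two-sided, p = 0.00529, adjusted p = 0.0529 over 10 genes) and Spearman's rho 0.842 (permutation p = 0.00364, adjusted p = 0.0364). Without the 2 rats farthest from the median r was 0.696, and within rats TS5.105 to TS5.128 (n = 8) it was 0.730 (exact permutation test, adjusted p = 0.149), with a rho of 0.833 (adjusted p = 0.154). With size factors r of Arntl was 0.728. Cry1 had r = 0.754 (permutation test, adjusted p = 0.0613), but 0.379 with size factors and 0.562 within rats TS5.105 to TS5.128, and Per1 0.684 (adjusted p = 0.0945), the latter 0.347 without the 2 farthest rats. No gene had an adjusted p below 0.05 for Pearson's r.

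**Figure D4:**
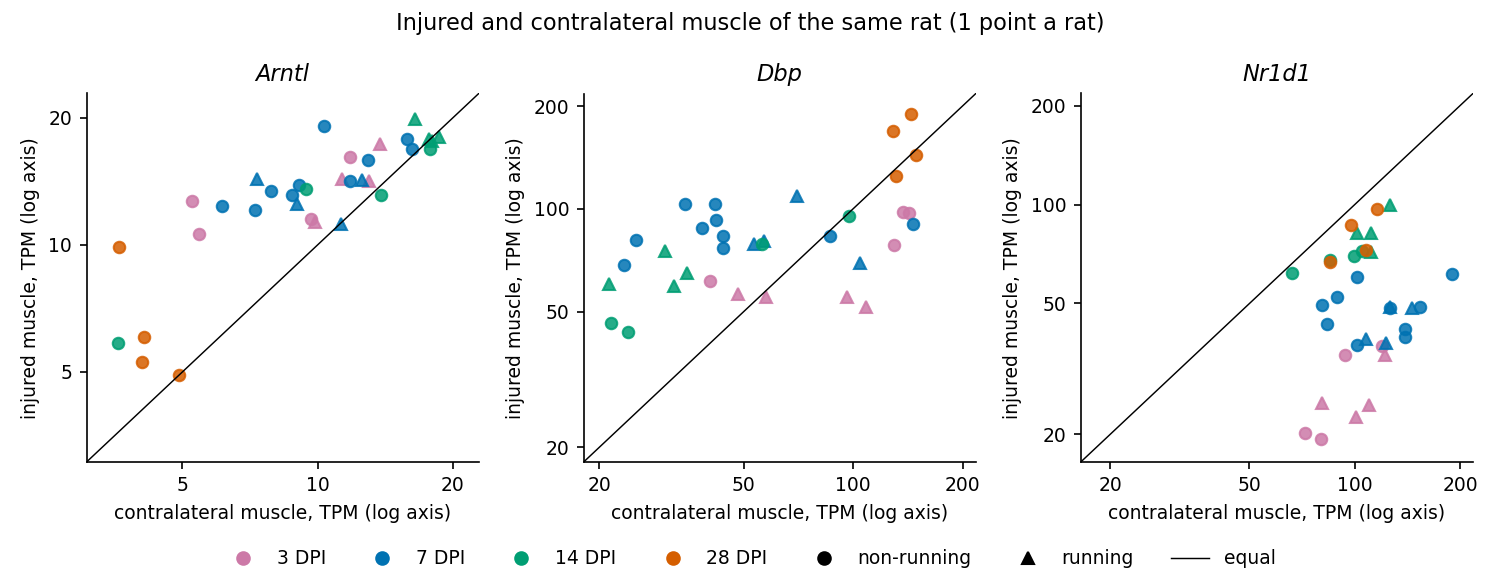
Level in injured (vertical axis) against contralateral muscle (horizontal axis) of the same rat in TPM (log axes), with 1 point per rat and the line of equal levels. Nr1d1 lies below the line in 34 of 34 rats and Dbp above it in 22 of 34.

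The members were also read against each other, as a description over muscles that share rats and days. Over the 38 uninjured muscles Arntl correlated with Dbp at r = -0.746 and with Ciart at -0.786, and with its partner Clock at 0.718. Over the 76 injured muscles the same values were -0.804, -0.758 and 0.751. Arntl thus ran opposite to Dbp and Ciart in both kinds of muscle. Cry1 did not, with r to Arntl of 0.684 in uninjured and 0.192 in injured muscle. Per2 and Per3 had r = 0.929 in uninjured and 0.715 in injured muscle. Nr1d1 stood apart in uninjured muscle, with r = 0.112 to Arntl and 0.143 to Nr1d2, against -0.466 and 0.833 in injured muscle. The difference between these values was not tested.

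**Figure D5:**
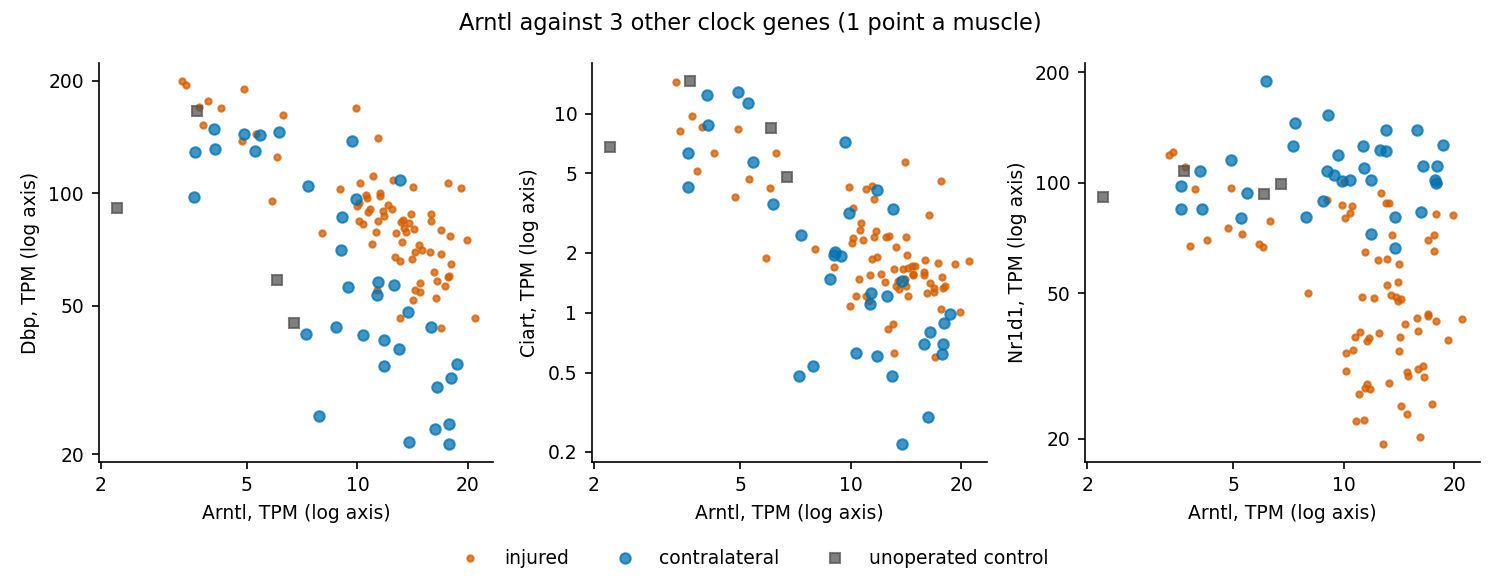
Arntl on the horizontal axis against other clock genes on the vertical axis, in TPM (log axes), with 1 point per muscle for 38 uninjured and 76 injured muscles. Dbp and Ciart fall as Arntl rises in both, with r between -0.804 and -0.746.

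The genes most like Arntl over the 38 uninjured muscles, by Pearson's r of log2(TPM + 1) across all tested genes, were Dyrk2 (0.918), Npas2 (0.908), Nfil3 (0.833), Mpped1 (0.807) and Pnpla3 (0.784). Npas2 encodes a paralogue of CLOCK and Nfil3 a repressor that binds D-boxes. Those most like Dbp were Slc7a2 (0.745), Ephx1 (0.740), Dgat2 (0.731), Tspan4 (0.716) and Acot11 (0.705).

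Of 20 further clock genes listed, 16 had a row and 15 were tested, of which Arntl2, Timeless and Fbxl21 passed the filter on low values through injured groups alone. These 3 are given as levels, and the counts are over the other 12. Arntl2, a paralogue of Arntl, was at 0.38 to 0.69 TPM in contralateral muscle of non-running rats at 3 DPI and at 5.59 to 11.66 TPM in injured muscle. Timeless, which also acts at the replication fork, was at 0.38 to 0.73 TPM and 5.43 to 14.42 TPM. The other 12 passed in uninjured muscle too. In contralateral muscle Tef, a paralogue of Dbp, fell from 3 to 7 DPI (-1.07), 1 of 12, where 2.52% of all genes were called lower, and from 14 to 28 DPI limma called 0 of 12 (0.115%). In injured against contralateral muscle 0 of 12 were called higher at 3 DPI in each arm, where 32.3%, 37.2% and 35.6% of all genes were in the non-repaired, MMG and running arms. At 7 DPI 2 of 12 rose in each arm, against 45.3%, 42.9% and 40% of all genes, namely Npas2 (1.36 to 1.51) and the kinase gene Csnk1d (1.00 to 1.11). Tef was lower at 3 DPI in MMG (-1.07) and running rats (-1.10), 1 of 12 in each, where 6.8% and 6.55% of all genes were called lower. In injured muscle Npas2 fell by 1.11 from 14 to 28 DPI, 1 of 12, against 0.909% of all genes.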

How the data were processed

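RNA-Seq of 138 TA libraries was deposited by the authors as 1 table of TPM per gene symbol, made with kallisto (rat build 6.0; version not given in the sources used here). The submitters' processing notes also name DESeq. Groups came from the labels. A total of 9 libraries were left ungrouped: 8 running rats' libraries at 28 DPI and 1 at 3 DPI, whose title and labels contradict each other. Libraries under 7000 symbols above 1 TPM were dropped (13), and 2 muscles with 2 kept libraries each were averaged. The table held 16181 complete symbols.

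Genes with a group mean above 1 TPM in at least 1 group (11328) were fitted as log2(TPM + 1) with limma 3.58.1 (R 4.3.3, trend, 31 groups, 83 residual degrees of freedom), with Benjamini-Hochberg adjustment. A call needed an adjusted p below 0.05 and a log2 fold change beyond 1, the thresholds of the study. The model was tested on simulated data. Correlations used scipy 1.17.1.

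The members and lists were chosen with earlier results of these data known. Named genes were the members, called genes of the fixed lists and, for Arntl and Dbp, the 5 most alike genes. Rat numbers pair the muscles of 1 animal: residuals of same-rat muscles correlated at 0.0944 (34 pairs) and those of different rats at -2e-04.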

Additional observations from a re-analysis of the deposited data

Results flagged for a closer look

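Within single groups of 4 to 8 muscles, 12 of 160 gene and group checks had a muscle farther from its neighbours than Dixon's limit, where chance gives about 5% of checks. Injured muscles of running rats gave Arntl at 20.9 TPM in rat TS5.029 and Ciart at 5.68 TPM in rat TS5.030 (non-repaired, 3 DPI), Per1 at 23.6 TPM in rat TS5.007 (MMG, 7 DPI) and Per3 at 14.1 TPM in rat TS5.003 (non-repaired, 7 DPI). Injured muscles of non-running rats gave Clock at 8.14 TPM in rat TS5.081 (non-repaired) and 11.4 TPM in rat TS5.076 (MMG) at 28 DPI, and Per1 at 32.3 TPM in rat TS5.013 (MMG, 3 DPI). Per3 was at 12 TPM in rat TS5.129 (non-repaired, 14 DPI) and Ciart at 4.34 TPM in rat TS5.012 (non-repaired, 7 DPI). Nr1d2 was at 21.3 TPM in rat TS5.023 (MMG, 7 DPI) and 39.5 TPM in rat TS5.131 (MMG, 14 DPI). The 1 contralateral muscle was that of rat TS5.108 (MMG, 7 DPI), with Clock at 7.67 TPM.

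Of 100 tests of whether an injury effect differed between days, repair arms or running, 6 passed the limits. Between 3 and 7 DPI the effect rose by 1.54 for Per2, 1.55 for Per3 and 1.34 for Dbp. In that step day and set of rats were largely confounded. Between 7 and 14 DPI the effect rose by 1.08 for Nr1d1. The other 2 were of Ciart and are given as descriptions, 1.93 between 3 and 7 DPI and 1.40 higher in running rats at 3 DPI.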

How the results depend on the processing

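In the comparisons 36 member calls were made, 16 of which held under every alternative run, and none changed sign. The counts include the calls of Ciart that are given above as descriptions. Counts of called members moved by over 1.5 times as follows. By adjusted p alone, injured against contralateral gave 14 in place of 6 (non-repaired), 18 in place of 4 (MMG) and 12 in place of 3 (running), injured against control 20 in place of 9, running in contralateral muscle 2 in place of 1, and the injured day steps 14 in place of 3. With size factors MMG gave 12, running 7 and injured against control 14. With a pseudocount of 0.1 TPM running gave 5 and the injured day steps 5. With all libraries kept, running in contralateral muscle gave 0 and the same-rat relation 4 in place of 0. Leaving out 1 muscle at a time gave 6 to 10 calls for the contralateral day steps (10 with all muscles), 2 to 4 for the injured ones, 4 to 8, 4 to 7 and 3 to 4 for non-repaired, MMG and running, 8 to 10 for control, 0 to 2 for running in contralateral muscle, and 0 to 0 for repair and for running in injured muscle. With all libraries kept 8 calls were lost, 7 of them at the same log2 difference (within 0.001) and a higher p: Arntl, Per1, Per2 and Dbp (contralateral, 14 to 28 DPI), Dbp (injured, 14 to 28 DPI), and Nr1d1 (-1.60, adjusted p = 0.0609) and Nr1d2 (-1.09, 0.123) of injured against contralateral non-repaired muscle at 3 DPI. The other was Ciart of running rats in contralateral muscle at 3 DPI (-1.38, 0.0688). The rat as a replicate block (correlation 0.026) changed no call. The range of rat numbers could not be fitted for steps to 28 DPI or against control. TPM keeps no depth, so low values such as those of Ciart carry no counting interval.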

Other observations

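The 8 libraries of running rats labelled 28 DPI whose title and labels contradict each other entered no comparison. They had 7.45 to 13.6 TPM of Arntl (median 9.525), 70.6 to 116 TPM of Dbp, 2.16 to 5.06 TPM of Ciart and 87.5 to 185 TPM of Nr1d1.

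The 2 muscles with 2 kept libraries showed the technical spread. Injured muscle of rat TS5.002 had 13.9 and 14.4 TPM of Arntl and 50.9 and 52.5 TPM of Dbp, and that of rat TS5.005 had 16.9 and 17.8 TPM of Arntl.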
